A study of Mus musculus with 4 samples.

Results

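The mitochondrial ribosomal protein genes encode the proteins of the ribosome inside mitochondria. They were taken as every gene of the array annotation whose symbol begins with Mrpl or Mrps followed by a digit, and 76 of the 19505 named genes met this rule. Of these, 48 carry an Mrpl and 28 an Mrps symbol, and each was read by 1 probe set. RefSeq lists 78 protein-coding genes of this rule, and the array annotation does not name Mrpl53 and Mrps6, which were not analysed here.

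RNA from the epididymal adipose tissue of male mice was hybridised to Clariom S Mouse arrays, in a series about vesicles shed by overloaded muscle and lipolysis in fat. There were 4 groups of 1 array each. GW-SA mice received GW4869, an inhibitor of extracellular vesicle release, and had synergist ablation, a surgery that loads 1 muscle more by taking out those sharing its work. GW-Sham mice received GW4869 and sham surgery, Veh-SA mice received the DMSO vehicle and synergist ablation, and Veh-Sham mice received the vehicle and sham surgery. The sources used here give no strain, age, dose, time after surgery or number of mice behind an array. No group has a replicate, so every value describes these arrays, their number limits the precision, and no p-value is given.

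The mitochondrial ribosome translates the few messenger RNAs of the mitochondrial genome, all of which encode subunits of the respiratory chain and of ATP synthase. Its RNAs are transcribed inside the organelle, whereas every one of its proteins is encoded in the nucleus, made in the cytosol and imported. Some of these proteins have a counterpart in the bacterial ribosome and others are particular to mitochondria. Adipocytes use respiration to fuel fatty acid synthesis and, in brown and beige cells, to make heat.

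Values are log2 expression as deposited, and a difference of at least 1.5-fold was counted as higher or lower. Probe sets differ in brightness, so levels are compared between arrays and not between genes. Of the 76 genes, 67 lay above the 95th percentile of the antigenomic background probes (log2 6.34 to 6.397) on all 4 arrays. Mrpl14, Mrpl36, Mrpl41, Mrpl46 and Mrpl54 lay below it on every array, and Mrpl22, Mrpl43, Mrps27 and Mrps35 on some. A stricter comparison, with the 95th percentile of the negative control rows (9.01 to 9.27), was passed on all arrays by 24 genes. The brightest probe sets by mean over the arrays were those of Mrpl42 (12.93), Mrpl33 (12.59), Mrpl51 (12.11), Mrpl27 (11.96), Mrpl48 (11.66) and Mrpl24 (11.52), which is no order of abundance.

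The arrays differed in tissue other than fat. The median of 17 mature adipocyte markers was high throughout, at 15.86 on GW-SA, 16.28 on GW-Sham, 16.83 on Veh-SA and 16.12 on Veh-Sham. The median of 15 sperm and testis markers was 4.63 on GW-SA, 3.38 on GW-Sham and 3.70 on Veh-SA, against 14.79 on Veh-Sham. Of 16 epididymal epithelium markers, 14 lay above the floor defined below on GW-SA, 2 on GW-Sham, 1 on Veh-SA and 8 on Veh-Sham, with medians of 13.27, 3.79, 3.39 and 4.50. The genes behind these counts differed between arrays. Gpx5 read 19.53 on GW-SA and 4.18 on Veh-Sham, whereas Defb38 read 4.60 on GW-SA and 16.55 on Veh-Sham. Serpina1f read 6.28 on GW-SA, 15.03 on GW-Sham, 2.52 on Veh-SA and 16.09 on Veh-Sham. Smooth muscle markers (10 genes) had medians of 9.45, 11.98, 7.57 and 11.89 in the same order, macrophage markers (11 genes) 11.65, 11.38, 10.23 and 9.68, and skeletal muscle markers (10 genes) 3.84, 4.22, 3.40 and 4.50. Each of the 4 comparisons contains either Veh-Sham, with testis and some epididymal transcripts, or GW-SA, with most epididymal ones, so none can be given without such an array. The part of these tissues in the results was not tested, and in a bulk sample fewer cells of a type and less RNA per cell cannot be told apart.

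Promoter sequences are shown first, because many of these genes share features that the choice by symbol did not use. RefSeq windows of 300 bases on GRCm38.p6, from 250 before to 50 after the gene start, were found for 67 of the 76 genes. Both strands were searched for the letters of 3 factors known to act on nuclear genes for mitochondria. The NRF1 motif, GCGC and GCGC with any 2 bases between them, was found in 14 windows (20.9%), against 13.2% of 9467 genes above the floor and 6.43% of all 27025 windows. The ETS motif CCGGAAG, bound by GABP, was in 24 (35.8%), against 17.5% and 9.12%. The YY1 motif AANATGGC was in 21 (31.3%), against 8.56% and 6.23%. At least 1 of the 3 motifs was in 46 windows (68.7%), against 33.6% and 19.3%. The SP1 motif GGGCGG was in 33 (49.3%), against 61.9% and 35.9%, the NF-Y motif CCAAT in 26 (38.8%), against 39.0% and 37.9%, and TATAAA in 4 (5.97%), against 7.996% and 14.2%. Letters searched for NRF1, ETS, YY1, SP1, NF-Y and TATA may share bases, and a match is a description of sequence and not of binding. The median GC content was 58.0% in these windows, against 60.3% in genes above the floor and 52.7% in all windows.

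**Figure D1:**
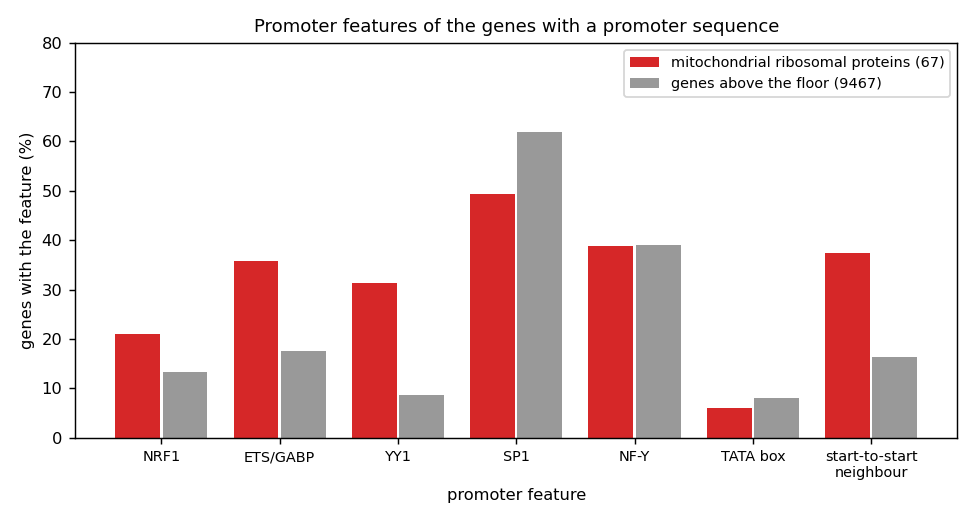
Share of genes (%, vertical axis) whose promoter window holds each motif, or whose start faces a neighbour's start, in the 67 mitochondrial ribosomal protein genes (red) and 9467 genes above the floor (grey). YY1 letters were in 31.3% against 8.56% and ETS letters in 35.8% against 17.5%, whereas NF-Y letters were in 38.8% against 39.0%.

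The first set of sequences comes from 3 genes with negative differences after overload under vehicle whose windows hold NRF1 or YY1 letters. They were chosen after their values were seen. Parts of the windows that are not printed also hold YY1 letters for Mrpl32 and Mrpl47 and ETS letters for Mrpl57. Each line gives the bases just before the start, 5′ to 3′ on the gene's strand, cut where the start of a facing neighbour is reached, and capitals mark NRF1 (Mrpl32, Mrpl57) or YY1 (Mrpl47) letters.
Mrpl32 (chr13:14613038-14613241, minus strand): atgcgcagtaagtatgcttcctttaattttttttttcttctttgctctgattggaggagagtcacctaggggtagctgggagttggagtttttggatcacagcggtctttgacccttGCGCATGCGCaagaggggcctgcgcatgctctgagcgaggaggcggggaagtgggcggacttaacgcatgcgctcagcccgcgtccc
Mrpl57 (chr14:57826164-57826238, plus strand): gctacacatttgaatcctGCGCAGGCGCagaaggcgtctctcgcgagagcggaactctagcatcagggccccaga
Mrpl47 (chr3:32736756-32737005, minus strand): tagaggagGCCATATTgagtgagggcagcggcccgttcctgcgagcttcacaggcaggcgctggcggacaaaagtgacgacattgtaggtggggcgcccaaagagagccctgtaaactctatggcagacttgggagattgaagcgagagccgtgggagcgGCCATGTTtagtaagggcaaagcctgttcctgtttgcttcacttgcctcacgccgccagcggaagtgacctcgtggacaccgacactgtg

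The second set shows the 3 genes with the largest positive differences after overload under vehicle, whose 250 bases before the start hold none of the NRF1, ETS and YY1 letters and so carry no capitals. The window of Mrps24 does hold YY1 letters after the start, which are not printed.
Mrpl16 (chr19:11770165-11770414, plus strand): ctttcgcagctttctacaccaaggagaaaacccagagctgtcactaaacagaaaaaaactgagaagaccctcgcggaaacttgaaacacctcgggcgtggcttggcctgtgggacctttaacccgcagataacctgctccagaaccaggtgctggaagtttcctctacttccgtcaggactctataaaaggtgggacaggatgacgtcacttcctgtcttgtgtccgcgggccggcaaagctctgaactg
Mrps5 (chr2:127587176-127587425, plus strand): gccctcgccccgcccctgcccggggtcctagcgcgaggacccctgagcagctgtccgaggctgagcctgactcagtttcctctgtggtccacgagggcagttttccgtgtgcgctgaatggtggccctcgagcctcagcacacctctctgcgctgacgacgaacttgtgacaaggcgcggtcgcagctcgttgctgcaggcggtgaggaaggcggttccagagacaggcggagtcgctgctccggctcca
Mrps24 (chr11:5707702-5707951, minus strand): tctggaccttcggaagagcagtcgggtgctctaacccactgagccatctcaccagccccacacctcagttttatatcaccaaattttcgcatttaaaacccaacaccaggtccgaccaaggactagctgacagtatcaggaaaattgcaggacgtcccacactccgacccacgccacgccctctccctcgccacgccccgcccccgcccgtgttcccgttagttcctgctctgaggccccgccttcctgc

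Mrpl16 and Mrps24, whose upstream bases are printed above, were among the 4 genes whose windows held TATAAA letters, with Mrpl46 and Mrps17. The median overload difference under vehicle was 0.48 with NRF1 letters and 0.41 without, 0.37 with ETS letters and 0.51 without, and 0.26 with YY1 letters and 0.42 without.

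Many of these genes stand head to head with another gene. For 25 of the 67 (37.3%), the nearest start on the opposite strand lay within 1000 bases upstream, against 16.4% of genes above the floor and 12.1% of named genes with a window. Mrpl46 and Mrps11, which encode a large and a small subunit protein, face each other with starts 42 bases apart, and the bases between them, on the Mrps11 strand, carry none of the 3 motifs.
Mrps11 (chr7:78783090-78783130, plus strand): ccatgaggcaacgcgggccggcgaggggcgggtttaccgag

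Other neighbours also have mitochondrial or ribosomal roles. Mrpl47 faces Ndufb5, a subunit of respiratory complex I, with starts 308 bases apart, Mrps12 faces Sars2, the mitochondrial seryl-tRNA synthetase, at 147 bases, and Mrpl49 faces Fau, which encodes a cytosolic ribosomal protein, at 192 bases. The array measured both genes of 21 distinct pairs. The overload differences of a pair had the same sign in 9 of 21 under GW4869 and in 11 of 21 under vehicle. Neighbours had a median difference of 0.09 under GW4869 and 0.36 under vehicle. Mrpl18 and Tcp1, a chaperonin subunit, start 238 bases apart, and the overload difference under vehicle was -0.19 for Mrpl18 and -1.88 for Tcp1. Tcp1 read 11.40 on Veh-SA and 13.28 on Veh-Sham, and testis markers were high on Veh-Sham, a link that was not tested.

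The median level of the 76 genes was lowest on Veh-Sham, as it was for other genes of similar brightness. It was 8.93 on GW-SA, 9.04 on GW-Sham, 8.99 on Veh-SA and 8.55 on Veh-Sham. The median of the 3062 genes of similar brightness, those with a mean within the interquartile range of the means of the 76 (7.91 to 10.02), was 8.97, 8.98, 8.97 and 8.71 in the same order, and that of genes above the floor 8.37, 8.34, 8.28 and 8.32. The floor was the 40th percentile of gene means over the 4 arrays (4.67), and 11703 genes, 74 of the 76 among them, lay above it. Mrpl36 and Mrpl54 were at or under the floor on some arrays. Mrpl54 read 4.10 on GW-SA, 4.53 on GW-Sham, 4.13 on Veh-SA and 4.84 on Veh-Sham. Mrpl36 read 4.37, 4.80, 4.59 and 4.56 on the same arrays, and both genes lay within background throughout.

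Veh-Sham was the lowest array for 42 of the 76 genes and Veh-SA the highest for 33. GW-SA was the lowest for 21. Among genes above the floor, Veh-Sham was the lowest for 45.9%, Veh-SA the highest for 30.1% and GW-SA the lowest for 22.3%. The spread over the arrays was narrower than for other genes, with a range of at least 1 log2 unit in 17 of 76 genes, against 43.6% of genes above the floor. In 29 of the 76, no comparison passed 1.5-fold, against 27.2% of genes above the floor. Mrps23, of the small subunit, had the narrowest range, with 9.16 on GW-SA, 9.05 on GW-Sham, 9.06 on Veh-SA and 9.08 on Veh-Sham. It was chosen for this after its values were seen.

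**Figure D2:**
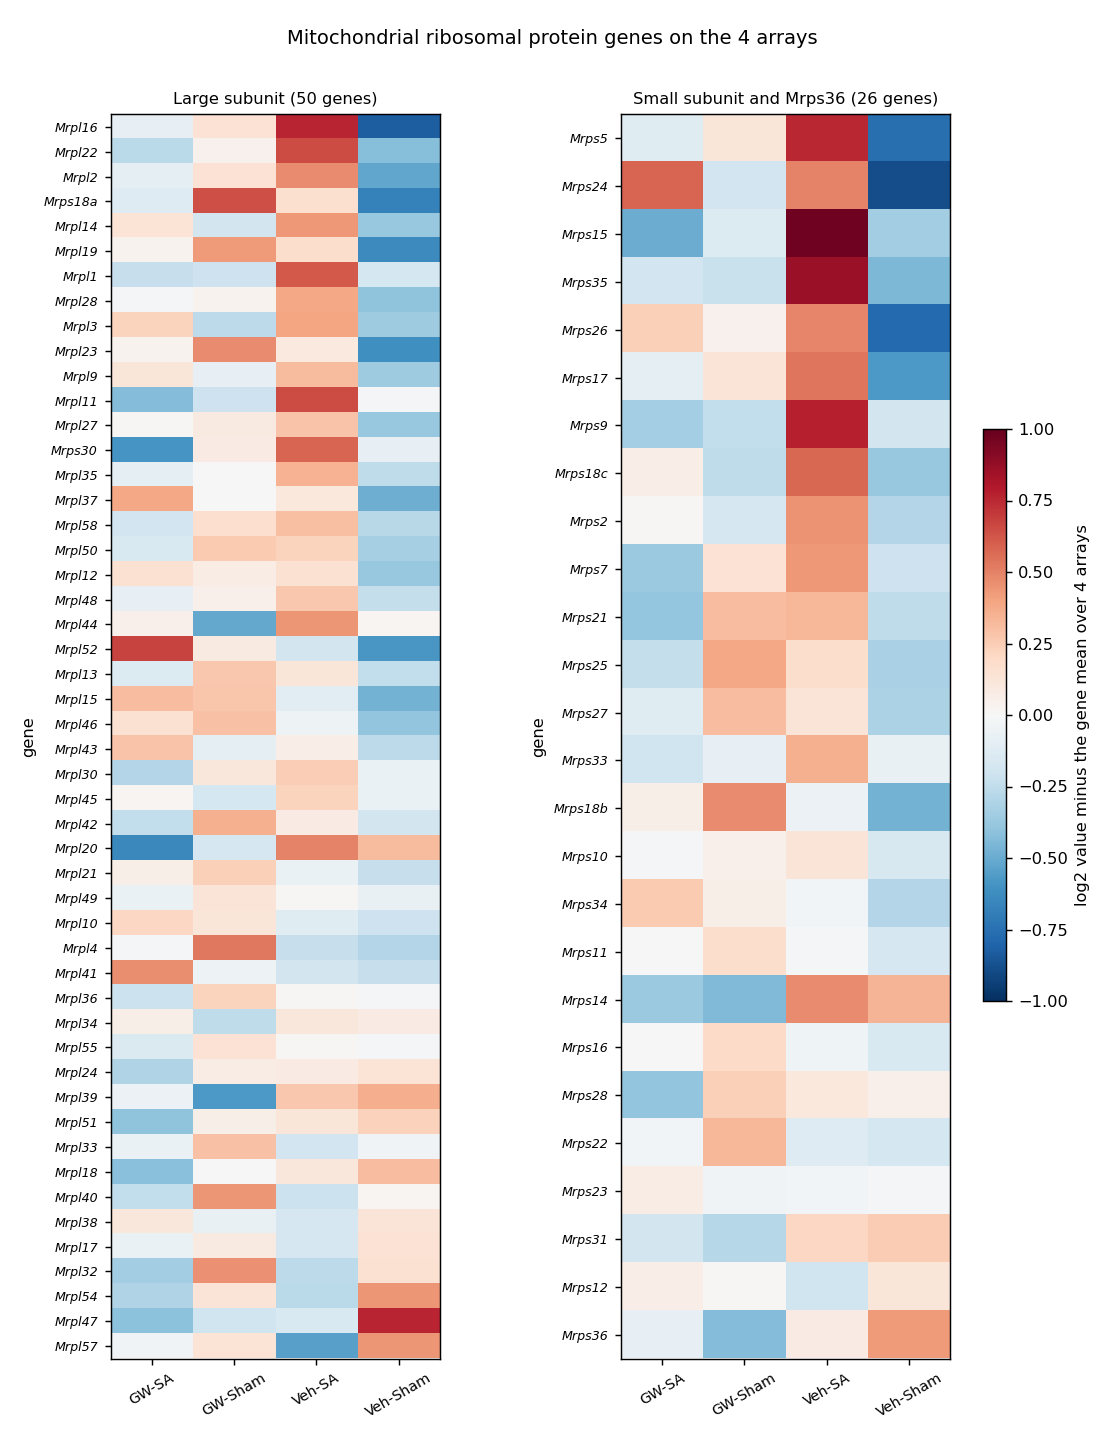
Level of each of the 76 genes on the 4 arrays, drawn as the log2 value minus the gene's mean over the arrays (colour), for the large subunit (left) and for the small subunit with Mrps36 (right), ordered by the overload difference under vehicle. Veh-Sham was the lowest array for 42 genes and Veh-SA the highest for 33.

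Overload under GW4869, the comparison of GW-SA with GW-Sham, gave slightly negative differences for most of these genes. Only Mrps24 was at least 1.5-fold higher (1.32%, against 13.4% of genes above the floor, 12.1% of all named genes and 11.5% of genes of similar brightness) and 8 were lower (10.53%, against 15.3%, 14.7% and 13.2%). The median difference was -0.18, against -0.04 in genes above the floor, and 50 of 76 differences were negative. With the median difference of the adipocyte markers (-0.41) subtracted from every gene, a shift common to all genes, the split was 17 higher and 0 lower (22.4% and 0%), against 32.1% and 4.82% of all named genes.

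The 8 lower genes were Mrpl32, Mrpl40, Mrpl42, Mrps18a, Mrps21, Mrps25, Mrps28 and Mrps30. Mrpl32, a large subunit protein whose maturation needs a protease of the inner membrane, read 7.77 on GW-SA and 8.57 on GW-Sham, a difference of -0.80. Mrps18a read 9.11 on GW-SA and 9.88 on GW-Sham (-0.77). Mrps21, a small subunit protein, read 10.18 on GW-SA and 10.88 on GW-Sham (-0.70). These 3 had the most negative differences of the 76, and none reached 2-fold. Mrpl40, particular to mitochondria, read 8.88 on GW-SA and 9.57 on GW-Sham (-0.69), and Mrps30 read 7.51 and 8.18 (-0.67). Mrps28 read 7.49 on GW-SA and 8.12 on GW-Sham (-0.63). Mrps25 had the same difference of -0.63, with 9.09 on GW-SA and 9.72 on GW-Sham, and Mrpl42 had -0.60, with 12.68 and 13.28.

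Mrps24, a small subunit protein with a bacterial counterpart, was the one gene at least 1.5-fold higher after overload in both treatments, against 3.08% of genes above the floor. It read 8.17 on GW-SA and 7.39 on GW-Sham (0.78), and 8.08 on Veh-SA and 6.70 on Veh-Sham (1.38). Below it stood Mrpl52 (0.58), Mrpl44 (0.56), Mrpl39 (0.52), Mrpl41 (0.52) and Mrpl3 (0.49), all of the large subunit and all under 1.5-fold. Mrpl44 read 7.70 on GW-SA and 7.14 on GW-Sham, Mrpl39 8.12 and 7.60, and Mrpl3, which has a bacterial counterpart, 8.54 and 8.05. Mrpl41 read 6.13 and 5.61, both within background.

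Overload under vehicle, the comparison of Veh-SA with Veh-Sham, gave more and larger differences. At least 1.5-fold higher were 27 of the 76 genes (35.5%, against 30.2% of genes above the floor, 27.2% of all named genes and 36% of genes of similar brightness), so the share was near the background. The 3 lower genes made up 3.95%, against 16.9%, 16.7% and 12.4%. The median difference was 0.37, against 0.26 in genes above the floor and 0.35 in genes of similar brightness, and 46 of 76 lay above the median of genes above the floor. Adipocyte markers had a median difference of 0.42, with 8 of 17 higher and 0 lower. The split moved with scaling, as it did for all named genes. It was 50 higher and 0 lower when arrays were centred on all named genes (65.8% and 0%, against 56.0% and 11.4% of all named genes). With the intensity trend removed it was 12 and 9 (15.8% and 11.8%, against 15.2% and 22.9%), and with the adipocyte median difference subtracted 8 and 10 (10.53% and 13.2%, against 10.55% and 28.8%). Centring on all named genes moved every difference of this comparison up by 0.47.

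At least 2-fold higher were 8 of the 76, against 11.9% of genes above the floor, so this count too was near the background. Mrpl16, a large subunit protein with a bacterial counterpart, read 8.02 on Veh-SA and 6.43 on Veh-Sham, a difference of 1.59. Mrps5, which lies near the messenger RNA path of the small subunit, read 9.95 on Veh-SA and 8.44 on Veh-Sham (1.51). Mrps15, of the small subunit, read 8.89 on Veh-SA and 7.57 on Veh-Sham (1.32). For Mrps15 the Veh-SA array stood alone, since GW-SA (7.42), GW-Sham (7.78) and Veh-Sham were close to each other. Mrps35, particular to mitochondria, read 7.19 on Veh-SA and 5.89 on Veh-Sham (1.31), and its other arrays (6.14 on GW-SA and 6.11 on GW-Sham) also lay within background. Mrps26, likewise particular to mitochondria, read 9.07 on Veh-SA and 7.81 on Veh-Sham (1.26), and Mrps17 read 10.08 and 8.97 (1.11). Among the 27, Mrpl14, Mrpl22 and Mrps35 had a reading within background, so their differences are uncertain.

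The 3 lower genes were Mrpl57, Mrpl47 and Mrpl54. Mrpl57, of the large subunit, read 9.87 on Veh-SA and 10.86 on Veh-Sham, a difference of -0.99, and its upstream bases are printed above with 1 NRF1 match. Mrpl47, whose upstream bases hold 2 YY1 matches, read 6.78 on Veh-SA and 7.70 on Veh-Sham (-0.92), and here Veh-Sham stood alone, with 6.52 on GW-SA and 6.73 on GW-Sham. Mrpl54 was within background. Lower by less than 1.5-fold were Mrpl32 (-0.41, 7.86 on Veh-SA and 8.26 on Veh-Sham), Mrps36 (-0.34, 8.18 and 8.52) and Mrps12 (-0.32, 7.34 and 7.66), which encodes a protein of the decoding centre. Mrps36 is now known as a component of the 2-oxoglutarate dehydrogenase complex and was left unclassed between the subunits.

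**Figure D3:**
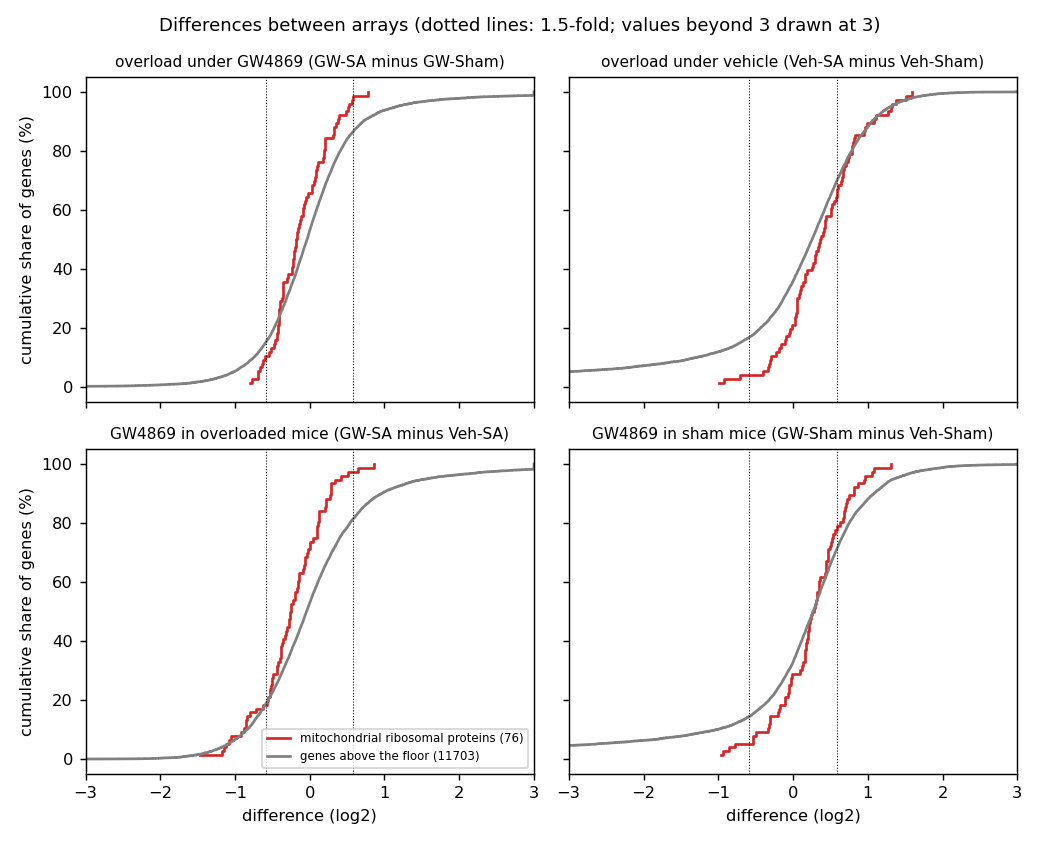
Cumulative share of genes (%, vertical axis) by log2 difference (horizontal axis) in the 4 comparisons, for the 76 mitochondrial ribosomal protein genes (red) and the 11703 genes above the floor (grey), with dotted lines at 1.5-fold. After overload, 1 of the 76 lay past the upper line and 8 past the lower one under GW4869, and 27 and 3 under vehicle.

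GW4869 in overloaded mice, the comparison of GW-SA with Veh-SA, gave lower values for most of these genes. At least 1.5-fold higher were 2 of 76 (2.63%, against 18.4% of genes above the floor, 15.1% of all named genes and 16.4% of genes of similar brightness), and 14 were lower (18.4%, against 18.8%, 19.4% and 17.5%). The median difference was -0.25, against -0.04 in genes above the floor. Adipocyte markers were also lower, with a median of -0.79 and 10 of 17 at least 1.5-fold lower, and with that median subtracted the split was 35 higher and 1 lower (46.1% and 1.32%, against 58.5% and 2.20% of all named genes).

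The 6 genes lower by at least 2-fold, against 6.54% of genes above the floor, were Mrps15, Mrps30, Mrpl20, Mrps9, Mrpl11 and Mrps35. Mrps15 read 7.42 on GW-SA and 8.89 on Veh-SA, a difference of -1.47. Mrps30 read 7.51 on GW-SA and 8.67 on Veh-SA (-1.17). Mrpl20, a large subunit protein, read 9.96 on GW-SA and 11.11 on Veh-SA (-1.15). Mrpl20 also read lower on GW-Sham (10.44) than on Veh-Sham (10.93). Mrps9 read 9.07 on GW-SA and 10.18 on Veh-SA (-1.11), and Mrpl11, of the stalk base, 8.90 and 9.99 (-1.08). Mrps35 read 6.14 on GW-SA and 7.19 on Veh-SA (-1.05), with the GW-SA reading within background. Mrpl22, among the 14 lower genes, also had a reading within background. Mrpl52 was 1 of the 2 higher genes, with 8.40 on GW-SA and 7.54 on Veh-SA (0.86), and the other, Mrpl41 (0.65), lay within background. The next differences were those of Mrpl57 (0.52), Mrpl15 (0.42), Mrpl10 (0.33) and Mrps34 (0.29). Mrpl15 read 8.25 on GW-SA and 7.83 on Veh-SA, Mrpl10 8.47 and 8.14, and Mrps34 9.23 and 8.94.

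GW4869 in sham mice, the comparison of GW-Sham with Veh-Sham, gave higher values for most. At least 1.5-fold higher were 17 of 76 (22.4%, against 28.9% of genes above the floor, 24.3% of all named genes and 33.5% of genes of similar brightness), and 4 were lower (5.26%, against 14.4%, 15.2% and 11.2%). The median difference was 0.26, against 0.27 in genes above the floor, which is close to it. With the intensity trend removed the split was 5 higher and 10 lower (6.58% and 13.2%, against 13.3% and 20.8% of all named genes), and with the adipocyte median difference (0.18) subtracted 8 and 7 (10.53% and 9.21%, against 15.9% and 18.96%).

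Mrps18a had the largest difference, with 9.88 on GW-Sham and 8.57 on Veh-Sham (1.31). Mrpl23, at the exit of the nascent chain tunnel, read 9.16 on GW-Sham and 8.08 on Veh-Sham (1.08). Mrpl19 read 9.19 on GW-Sham and 8.14 on Veh-Sham (1.06). Mrpl16 (0.97), Mrps18b (0.95) and Mrps5 (0.88) came next, and for all 6 genes Veh-Sham was the lowest of the arrays. Among the 17 higher genes, Mrpl46 and Mrps27 had a reading within background. The 4 lower genes were Mrpl47, Mrpl39, Mrps36 and Mrps14. Mrpl47 had -0.96, and Mrpl39 read 7.60 on GW-Sham and 8.54 on Veh-Sham (-0.93). Mrps36 read 7.66 on GW-Sham and 8.52 on Veh-Sham (-0.85), and Mrps14 read 10.47 and 11.25 (-0.78). Mrps14, of the small subunit, was lower under GW4869 in overloaded mice as well, with 10.54 on GW-SA and 11.38 on Veh-SA (-0.84), the one gene lower in both, against 2.35% of genes above the floor. Mrps31 (-0.54, 8.93 on GW-Sham and 9.47 on Veh-Sham) and Mrpl44 (-0.53, 7.14 and 7.67) stayed under 1.5-fold.

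The overload difference under GW4869 minus that under vehicle had a median of -0.48, against -0.27 in genes above the floor. It was at least 1.5-fold lower in 34 of 76 genes (44.7%, against 36.3% of genes above the floor) and higher in 4, against 21.5%. The 4 were Mrpl57 (0.82), Mrpl47 (0.71), Mrps36 (0.69) and Mrpl39 (0.61). The lowest were Mrpl16 (-1.82), Mrps5 (-1.75), Mrps15 (-1.68) and Mrps18a (-1.60). For Mrpl16, GW-SA read 7.17 and GW-Sham 7.40, so the order of overload and sham was opposite to that under vehicle. Mrps5 did likewise, with 9.08 on GW-SA and 9.32 on GW-Sham. A positive difference under vehicle with a negative one under GW4869 was seen in 40 of 76 genes, against 36.3% of genes above the floor. Lower by 1.5-fold under GW4869 and higher by 1.5-fold under vehicle were 3 of 76, Mrps18a, Mrps21 and Mrps30, against 5.53% of genes above the floor. With the adipocyte median difference subtracted in each comparison, the median of the difference between them was 0.36, against 0.60 in all named genes. Adipocyte markers had -0.84 as deposited.

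**Figure D4:**
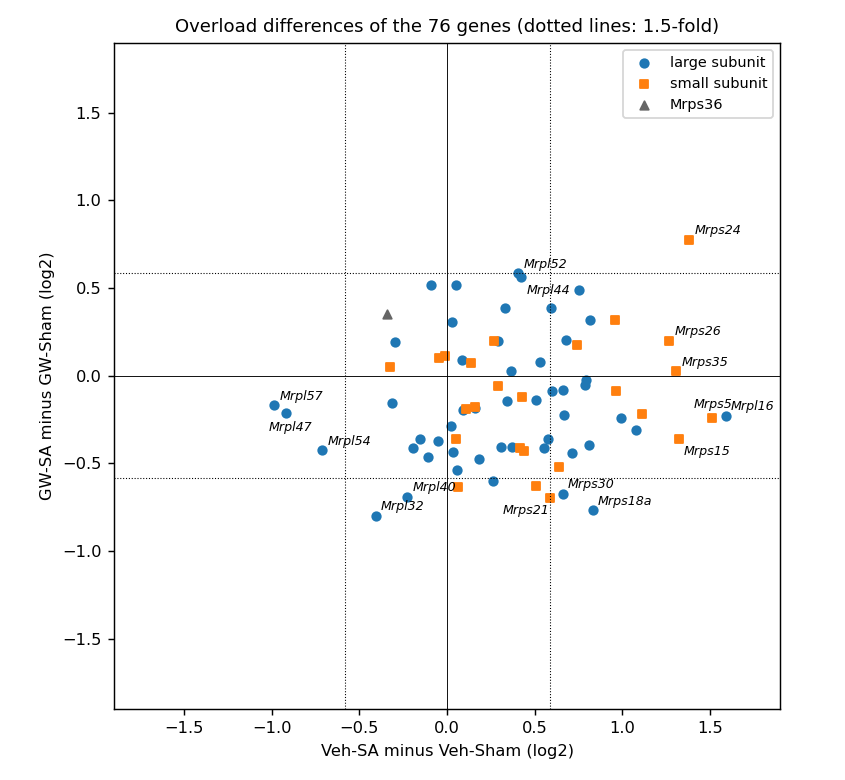
Overload difference under vehicle (horizontal, log2) against that under GW4869 (vertical, log2) for each of the 76 genes, by subunit, with dotted lines at 1.5-fold. Mrps24 alone lies past 1.5-fold higher on both axes, and Mrps18a, Mrps21 and Mrps30 lie at the lower right.

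By subunit, using the place of each protein in the ribosome, 50 genes belong to the large and 25 to the small subunit, with Mrps30 and Mrps18a in the large one in spite of their symbols. After overload under vehicle the median was 0.34 in the large subunit (16 higher and 3 lower) and 0.44 in the small one (11 higher and 0 lower). Under GW4869 it was -0.20 (0 higher and 5 lower) and -0.12 (1 higher and 3 lower). For GW4869 in overloaded mice it was -0.21 in the large subunit (2 higher and 6 lower) and -0.42 in the small one (0 higher and 8 lower), and in sham mice 0.26 and 0.34. Among small subunit genes with a bacterial counterpart, 9 of 15 were higher after overload under vehicle (median 0.64), against 2 of 10 particular to mitochondria (0.42). In the large subunit, 13 of 30 with a counterpart were higher (0.37), against 3 of 20 particular to mitochondria (0.31). Among genes above the floor, 30.2% were higher and 16.9% lower after overload under vehicle, and 13.4% and 15.3% under GW4869. For GW4869 in overloaded mice these shares were 18.4% and 18.8%, beside 12% lower in the large subunit and 32% in the small one. The contrast between subunits or classes was not tested. The middle genes by mean level of these classes were Mrpl19, Mrpl40, Mrps10 and Mrps18b. Mrps10 read 8.81 on GW-SA, 8.87 on GW-Sham, 8.95 on Veh-SA and 8.66 on Veh-Sham, and no comparison of it passed 1.5-fold.

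The Mrps18 paralogs, which arose from 1 bacterial protein and occupy different places in the ribosome, did not share a profile. In the classes above, Mrps18c was counted with a bacterial counterpart. Mrps18a and Mrps18b were counted as particular to mitochondria in spite of this origin, so the class counts depend on that placement. Mrps18a read 9.11 on GW-SA, 9.88 on GW-Sham, 9.39 on Veh-SA and 8.57 on Veh-Sham. Mrps18b read 8.96, 9.37, 8.83 and 8.42 in the same order. Mrps18c read 8.36, 8.04, 8.87 and 7.91. GW-Sham was thus the highest array for Mrps18a and Mrps18b and Veh-SA for Mrps18c, whose overload difference was 0.32 under GW4869 and 0.96 under vehicle.

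Mitoribosomal proteins with other symbols gave 4 measured genes. Dap3, a GTP-binding small subunit protein, was lower after overload in both treatments, with -0.51 under GW4869 and -0.73 under vehicle, of which only the second passed 1.5-fold. Chchd1, whose Veh-Sham reading lay within background, had -0.07 under GW4869 and 1.31 under vehicle, Ptcd3 -0.15 and 0.53, and Gadd45gip1, within background, 0.20 and 0.45.

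Of 15 mitochondrial translation factors and related genes, 11 (73.3%) were at least 1.5-fold higher after overload under vehicle and 0 lower. The median of the 15 was 0.91. Under GW4869, 0 were higher and 1 lower (Mrrf, the ribosome recycling factor, -0.79), with a median of -0.36 and 15 of 15 negative. Among genes above the floor, 30.2% were higher and 16.9% lower under vehicle, and 13.4% and 15.3% under GW4869. Mtrf1l, a release factor, read 9.02 on GW-SA, 9.38 on GW-Sham, 10.12 on Veh-SA and 8.41 on Veh-Sham. Lrpprc, which stabilises mitochondrial messenger RNAs, read 7.98, 8.07, 9.18 and 7.61 in the same order, and Tufm, the elongation factor that brings aminoacyl-tRNA, 7.99, 8.54, 8.95 and 7.89. The overload differences under vehicle were 1.71, 1.56 and 1.06 for these 3 genes. Taco1, a translational activator, had 1.11. The list also holds Lrpprc, Letm1, Oxa1l and Slirp, which are not translation factors in the strict sense. Of these, Lrpprc, Letm1 (0.71) and Oxa1l (0.67) were among the 11 under vehicle and Slirp (0.32) was not. Mtrf1, also among the 11, read 6.36 on Veh-Sham, within background.

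Assembly factors of the mitoribosome (25 genes) were mixed, with 3 higher and 2 lower after overload under GW4869 (median -0.03). Those shares of 12% and 8% compare with 13.4% and 15.3% of genes above the floor. With vehicle, 6 were higher and 3 lower (median 0.33), or 24% and 12%, against 30.2% and 16.9%. Under vehicle, Mtg2, a GTPase of large subunit assembly whose Veh-Sham reading lay within background, had 1.58 and Rbfa, a small subunit maturation factor, 1.46. Nsun4 had -1.70, Dhx30 -1.27 and Tfb1m, an rRNA methyltransferase, -1.22. Each of these 3 lower genes had its highest level on Veh-Sham, the array with high testis markers (Nsun4 6.01, Dhx30 9.30, Tfb1m 8.01). They were named for low differences against that same array, and the part of testis tissue was not tested. Nsun4 lay within background throughout. Under GW4869, Mrm2 had -1.06 and Mtg2 0.96, both with GW-SA and GW-Sham readings within background, and Mettl15, within background on GW-Sham, 0.79.

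Of 19 mitochondrial aminoacyl-tRNA synthetase genes and their partners, 0 passed 1.5-fold after overload under GW4869. Under vehicle 5 (26.3%) were higher and 0 lower. The largest were Hars2 (1.21), Iars2 (1.02), Tars2 (0.83) and Rars2 (0.75), of which Hars2 lay within background on both arrays and Tars2 on Veh-Sham. Of 8 genes for transcription and replication of mitochondrial DNA, 0 passed 1.5-fold under GW4869 and 4 (50%) were higher under vehicle. Among genes above the floor, 13.4% were higher and 15.3% lower under GW4869, and 30.2% and 16.9% under vehicle. Tfb2m had 1.21, Polrmt, the mitochondrial RNA polymerase and within background here, 1.19 and Polg2 1.10, whereas Tfam, which packages the genome, had -0.30 under GW4869 and -0.53 under vehicle.

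The regulators of nuclear genes for mitochondria include the factors whose motifs were searched above. Ppargc1a, the coactivator of mitochondrial biogenesis, had a difference of 0.84 after overload under GW4869 and 1.92 under vehicle. Nrf1 had 0.14 and 0.82, Gabpa -0.02 and 0.49, and Yy1 0.06 and 0.12. Gabpb1, the partner of Gabpa, had 0.77 under GW4869 and -0.71 under vehicle. Myc (1.65) and Ppargc1b (1.23) were higher under vehicle. In all, 3 of 8 (37.5%) were higher and 0 lower under GW4869, against 13.4% and 15.3% of genes above the floor. Under vehicle 5 were higher (62.5%) and 1 lower (12.5%), against 30.2% and 16.9%. Both counts of higher genes include Pprc1 (0.64 under GW4869 and 0.69 under vehicle), which lay within background throughout.

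The nuclear-encoded respiratory chain subunits, which assemble with those the mitoribosome makes, stood close to the mitoribosomal genes under vehicle and lower under GW4869. After overload under GW4869, 1 of 73 was higher (1.37%) and 15 lower (20.5%) (median -0.39), against 13.4% and 15.3% of genes above the floor. Under vehicle 21 were higher (28.8%) and 2 lower (2.74%), with a median of 0.35, against 30.2% and 16.9%. GW4869 in overloaded mice had 1 higher (1.37%) and 38 lower (52.1%), with a median of -0.59, against 18.4% and 18.8%. Genes with symbols of cytosolic ribosomal proteins went another way. They were chosen by symbol alone, so paralogs may be among them, and 61 had a mean above the floor. Of 63 genes, 14 (22.2%) were higher and 0 lower after overload under GW4869 (median 0.36). With vehicle, 5 (7.94%) were higher and 4 (6.35%) lower (median -0.04). In overloaded mice 23 (36.5%) were higher under GW4869 and 0 lower (median 0.49). After overload under vehicle, 1 of the 63 was at least 2-fold higher and 3 were lower, down to -3.95. Testis markers were high on Veh-Sham, a link that was not tested. The difference between both ribosomes was not tested, and the comparisons that share an array are not independent of each other.

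**Figure D5:**
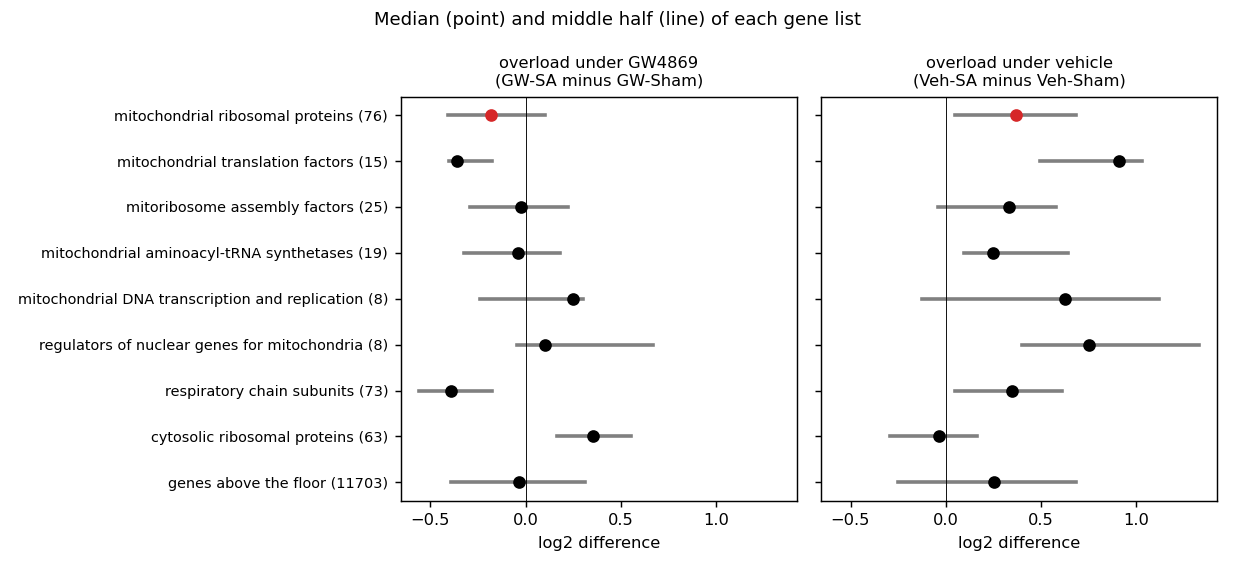
Median (point) and interquartile range (line) of the log2 overload difference in each gene list, with the number of genes in brackets, under GW4869 (left) and under vehicle (right). The mitochondrial ribosomal protein genes (red) had medians of -0.18 and 0.37. Those of mitochondrial translation factors and related genes were -0.36 and 0.91, and those of cytosolic ribosomal proteins 0.36 and -0.04.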

How the data were processed

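Log2 expression values were deposited by the authors. The submitters' processing notes name Partek and RMA, and the sources used here give no versions, background step or scaling. Values reach 19.93, so a difference of 1 is a doubling on that scale only. Of 28846 rows, 19572 have 1 gene symbol in the platform annotation and 0 have several. The probe set with the highest mean was kept for each of 19505 genes. Groups came from sample titles, with 1 array per group, so no test was run and no paired design exists. Differences of log2 values were counted at 1.5-fold, beside all named genes, genes above the floor and genes of similar brightness.

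The text names the 6 highest and 6 lowest differences of each of the 4 comparisons, 4 of each for the difference between the overload differences, the 6 highest and 4 lowest means, genes at or under the floor, the Mrps18 paralogs, the middle gene of each class, up to 4 genes per pathway list, and Tfam, Polrmt, Nrf1, Gabpa, Yy1 and Ppargc1a; others are marked or belong to counts given in full. The genes and lists were chosen with earlier results of these data known. Alternatives were other centrings, removal of the intensity trend (lowess fraction 0.3), quantile normalization, the mean of probe sets, the floor, and a 2-fold threshold. Counting was tested on simulated data. Python 3.11.15, numpy 2.4.6, pandas 2.3.3 and statsmodels 0.14.6 were used. Promoter windows came from RefSeq on GRCm38.p6, with the first used for 3 genes with several.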

Additional observations from a re-analysis of the deposited data

Results flagged for a closer look

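The sign of the overload difference was opposite under the 2 treatments, which was not tested. The median of the 76 genes was -0.18 under GW4869 and 0.37 under vehicle, and genes above the floor had the same signs (-0.04 and 0.26). Mrps18a had -0.77 under GW4869 and 0.83 under vehicle, Mrps21 -0.70 and 0.59, and Mrps30 -0.67 and 0.66. These 3 of 76 genes were at least 1.5-fold lower under GW4869 and higher under vehicle, against 5.53% of genes above the floor.

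The sign of the GW4869 difference was likewise opposite after overload and sham surgery, also untested. The median was -0.25 in overloaded mice and 0.26 in sham mice, with the same signs in genes above the floor (-0.04 and 0.27). Mrpl16 had -0.85 in overloaded mice and 0.97 in sham mice, Mrps5 -0.88 and 0.88, and Mrps17 -0.63 and 0.70.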

How the results depend on the processing

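Scaling moved the medians. Each centring subtracts the same amount from every gene, so the median of the 76 genes minus that of all named genes cannot change. It was -0.13 for overload under GW4869, 0.16 for overload under vehicle, -0.17 for GW4869 in overloaded mice and 0.07 for GW4869 in sham mice. Removal of the intensity trend gave -0.15, 0.095, -0.19 and -0.012 in the same order. Quantile normalization gave -0.15, 0.27, -0.22 and 0.12. Centred on all named genes, the medians were -0.28 for overload under GW4869, 0.84 for overload under vehicle, -0.47 for GW4869 in overloaded mice, 0.62 for GW4869 in sham mice and -1.06 for the difference between the overload differences. Centred on adipocyte markers they were 0.24, -0.34, 0.72, 0.11 and 0.65 in the same order. With the adipocyte median difference subtracted, a setting chosen after seeing the data, they were 0.23, -0.049, 0.54, 0.086 and 0.36. With the intensity trend removed, overload under vehicle gave 0.053 and GW4869 in sham mice -0.052. Subtracting the vehicle overload difference from the GW4869 one, gene by gene, then gave a median of -0.17. After quantile normalization the same medians were, in this order, 0.58, 0.41 and -0.69. The cause of these moves was not tested.

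Higher and lower counts for overload under GW4869, overload under vehicle, GW4869 in overloaded mice and GW4869 in sham mice were 1 and 10, 50 and 0, 1 and 30, and 41 and 1 centred on all named genes. Centred on adipocyte markers they were 18 and 0, 5 and 26, 48 and 0, and 9 and 7. With the trend removed they were 3 and 7, 12 and 9, 3 and 13, and 5 and 10, and after quantile normalization 1 and 7, 37 and 2, 1 and 17, and 27 and 4. At 2-fold they were 0 and 0, 8 and 0, 0 and 6, and 3 and 0. Probe set averaging could change no count, because each of the 76 genes has 1 probe set, and the floor changed 1 lower call.

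Of 72 differences given by name, tried in 575 values, 7 values turned the sign of a call. Over all 76 calls of these genes in the 4 comparisons, 18 of 607 did. Only a difference of at least 1.5-fold as deposited could count as turned, so smaller named differences that changed sign are not among the 7. Mrpl32 in overload under vehicle, for example, went from -0.41 to 0.067 centred on all named genes. Both totals also include probe set averaging and the limit to genes above the floor, which could turn no sign. Centred on adipocyte markers, GW4869 in overloaded mice gave 0.13 for Mrpl16, 0.13 for Mrps14, 0.35 for Mrps17 and 0.096 for Mrps5, and overload under vehicle gave -0.12 for Mrps21 and -0.051 for Mrps30. With the adipocyte difference subtracted, Mrps17 gave 0.16. No paired analysis was possible because each group has 1 array, and no replicate could be left out. Signal near background limits Mrpl14, Mrpl36, Mrpl41, Mrpl46 and Mrpl54 on every array, and Mrpl22, Mrpl43, Mrps27 and Mrps35 on some.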
